A study of Mus musculus with 2 samples.

Results

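The transcripts described here are those that GENCODE M21 types as nonsense-mediated decay (NMD) and that were selected on their measured level, which had to reach 1 TPM in both libraries of the transcript table that also lists IsoPct. TPM is a length-normalised measure of transcript abundance with the same sum in every library. IsoPct is the percentage of a gene's TPM that falls to a given transcript. Of 7186 annotated NMD transcripts, 848 met this rule (11.8%), against 16.6% of all 141767 transcripts listed in both transcript tables. A further 319 reached the level in replicate 1 alone and 410 in replicate 2 alone, 5609 stayed below it in both libraries, and 3416 of those were listed at 0 TPM in both. The 848 transcripts came from 729 host genes, of which 102 held more than 1 and none more than 4.

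The RNA was nuclear, taken from C57BL/6J bone marrow-derived macrophages (phagocytes cultured from mouse marrow), and was sequenced after removal of ribosomal RNA. Cells received 100 ng/ml Lipid A, the TLR4-binding part of bacterial lipopolysaccharide, for 12 hours, spent 12 hours without it, and were given the same dose again for 20 minutes. The single group held 2 libraries, made from 1 µg of RNA in replicate 1 and 500 ng in replicate 2, so that RNA input and replicate cannot be told apart. The labels call the fraction nucleoplasmic in one field and nucleus in another, give both libraries the same donor, and do not say whether the cultures came from separate animals, so differences between the libraries measure a spread that may be technical. The strain is the only genotype named, and age and sex were not collected. Both libraries had this treatment, so no untreated level of any transcript can be given and every value is a description without a test. The 8 macrophage markers checked, which include Lyz2, Adgre1 and Csf1r, were all at 1 TPM or more with a median of 124 TPM. Of 26 markers of neutrophils, dendritic cells, lymphoid, stromal and erythroid cells, S100a9 (mean 1.42 TPM) and Pecam1 (mean 1.55 TPM) reached that level.

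NMD is a surveillance pathway that degrades messenger RNAs whose stop codon is followed by an exon junction. During splicing a protein complex is left upstream of each junction, and a ribosome that stops before the last such complex recruits UPF1 and its partners. Annotators therefore type a transcript as NMD from its structure, by a stop codon more than 50 bases upstream of its last junction, and not from any measured decay. Because degradation follows translation, nuclear RNA is in general held not yet to have met this pathway, which was not tested in these libraries. Many genes for splicing factors carry a poison exon, a conserved exon with an in-frame stop, and use its inclusion to limit their own protein. Macrophages given Lipid A switch on large sets of interferon-stimulated genes, which encode proteins that restrict viruses.

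Sequences of 10 members show the ways in which their annotated reading frames ended. The start of the coding part is missing from the annotation of Lrp1-205, Oasl2-205, Son-212 and Srsf2-204, so their frames are the annotators' assignment. Each line gives the last bases of the annotated coding part of the transcript, at most 60 with the stop codon in capitals, from GENCODE M21 transcripts on mm10. The first 5 stops lie in bases that no protein-coding transcript of the gene includes as exon.
Ddx5-208: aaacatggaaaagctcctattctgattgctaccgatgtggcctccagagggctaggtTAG
Lrp1-205: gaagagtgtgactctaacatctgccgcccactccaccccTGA
Oas1g-203: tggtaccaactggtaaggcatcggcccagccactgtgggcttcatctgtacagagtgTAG
Tra2a-202: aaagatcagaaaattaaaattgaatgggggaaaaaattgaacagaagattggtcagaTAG
Son-212: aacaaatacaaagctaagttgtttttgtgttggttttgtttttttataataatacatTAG
The next 3 stops lie in exon bases that a protein-coding transcript shares, at a position where no coding transcript of the gene stops.
Mx1-205: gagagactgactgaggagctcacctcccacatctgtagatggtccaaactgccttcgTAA
Lilr4b-204: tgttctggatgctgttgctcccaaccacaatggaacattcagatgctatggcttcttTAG
Oasl2-205: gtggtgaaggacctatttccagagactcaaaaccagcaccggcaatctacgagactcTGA
The last 2 end at the stop codon of a coding transcript of the gene and have a junction downstream of it.
Srsf2-204: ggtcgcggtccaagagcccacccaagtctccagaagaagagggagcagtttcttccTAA
Prpf4b-208: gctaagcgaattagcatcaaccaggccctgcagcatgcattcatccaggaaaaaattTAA

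In Ddx5-208, only the last 5 bases of the window lie outside coding exons, so the frame ended directly inside the retained intron, at chr11:106783954-106783956 on the minus strand. The stop of Tra2a-202 (chr6:49252965-49252967, minus strand) lies in a separate exon that holds the whole 60-base window, and 7 junctions follow it. In Oas1g-203 (chr5:120881837-120881839, minus strand) 48 of 60 bases, and in Lrp1-205 (chr10:127549472-127549474, minus strand) 32 of 42, came from the lengthened end of a coding exon. The Son-212 window (stop at chr16:91671535-91671537, plus strand) lies wholly in such an extension. All bases of the Mx1-205 window (stop at chr16:97451528-97451530, minus strand) are coding-exon bases of other Mx1 transcripts, and the window spans a junction. Lilr4b-204 ends at chr10:51481811-51481813 (plus strand) and Oasl2-205 at chr5:114901288-114901290 (plus strand). The shared ends are the stops of Srsf2 at chr11:116852028-116852030 (minus strand), with 2 junctions downstream in Srsf2-204, and of Prpf4b at chr13:34901594-34901596 (plus strand), with 1 junction downstream in Prpf4b-208.

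Over all 848 members, the stop codon lay in shared exon bases in 443 (52.2%), in bases outside every coding exon in 328 (38.7%) and at the stop of a coding transcript in 68 (8.02%). The other 9 had no protein-coding transcript in their gene. Among the 6338 annotated NMD transcripts that did not meet the rule the shares in the same order were 60.1%, 31.7% and 6.89%. Of the 328 stops in added bases, 173 were in a separate exon, 120 in a longer form of a coding exon and 35 in a retained intron. An exon that covered a whole intron of a coding transcript was found in 111 members (13.1%) and in 5.14% of the other annotated NMD transcripts. The start of the coding part was missing from the annotation of 222 members (26.2%). The reading frame was short. In the 620 members with an annotated start and a coding transcript in their gene, its median length was 30.7% of the longest coding sequence of the gene.

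The stop codon was more than 50 bases upstream of the last junction in 844 of the 848 (99.5%), as the annotation type requires, and in 31 of 11632 protein-coding transcripts at the same level (0.267%). The median distance to the last junction was 487 bases in members and 318 bases in the other annotated NMD transcripts, with a range of 27 to 12430 in members. One junction lay downstream in 176 members, and up to 37 in others. Members were also longer, with a median length of 2092 bases against 1132 in the other annotated NMD transcripts. The best transcript support level, 1, was given to 361 members (42.6%) and to 27.1% of the others.

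**Figure D1:**
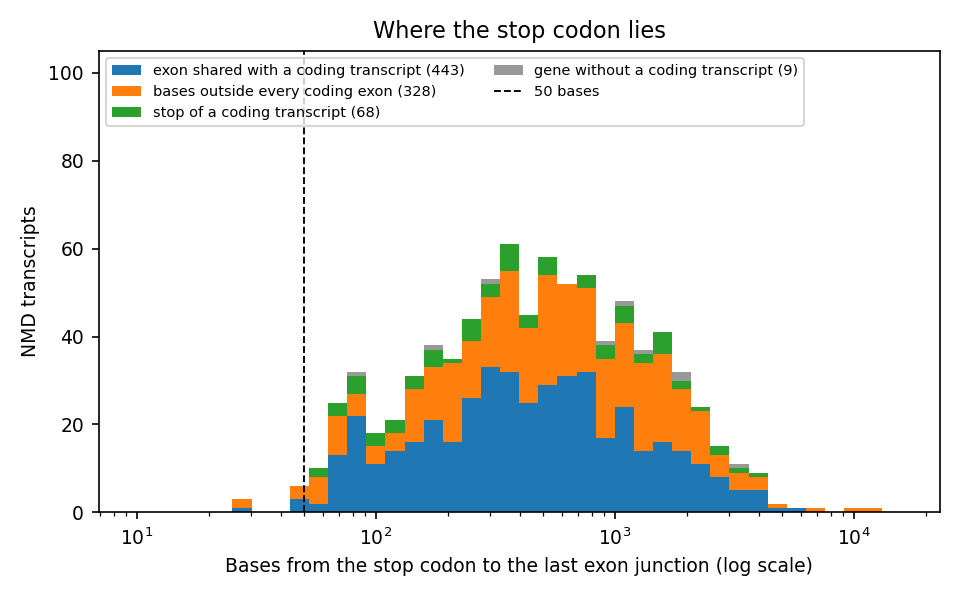
Number of NMD transcripts at 1 TPM or more in both libraries (vertical axis) by the distance in bases from the stop codon to the last exon junction (horizontal log axis), stacked by the class of stop codon. The dashed line marks 50 bases, and 844 of the 848 transcripts lie to its right.

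NMD transcripts were minor forms of most host genes. Their median TPM was 2.79 in replicate 1 and 3.48 in replicate 2, and their median IsoPct was 15.6% and 15.3%. Protein-coding transcripts at the same level had a median IsoPct of 43.7% and 42.1%, and retained-intron transcripts, which keep an intron and have no annotated coding part, 12.7% and 14.3%. The middle range of member IsoPct, from the first to the third quartile, ran from 7.66% to 27.0% in replicate 1 and from 6.71% to 30.4% in replicate 2. IsoPct was below 10% for 293 members in replicate 1 and 306 in replicate 2. Since the level of 1 TPM chose the members, these levels describe the choice and support nothing.

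An IsoPct of 50% or more in both libraries was found for 41 members (4.83%), against 28.8% of all transcripts at the same level, 37.5% of the protein-coding and 1.99% of the retained-intron transcripts. The member had the highest TPM of its gene in both libraries in 121 cases, 115 of them in genes with more than 1 listed transcript. Of the 41, 13 shared exon bases with another gene on the same strand and 10 carried the tag for readthrough between neighbouring genes, compared with 52 and 8 of the other 807 members. IsoPct was 100% in both libraries for 7 members. Of these, 6 were the only listed transcript of their gene, which fixes IsoPct at 100%, and they are also among the 41. Among the 10 with the highest IsoPct by the rule for named genes, Gm20605-201 (19.6 and 13.9 TPM) overlapped Lrch4 and Sap25, Gm20716-201 (5.54 and 8.08 TPM) overlapped Adnp and Dpm1, and Evi2-201 (5.57 and 12.3 TPM) overlapped Evi2a and Evi2b, so reads of those genes and of these transcripts may not be separable. Chmp4c-202, from a gene for a membrane-remodelling ESCRT-III subunit, overlapped no other gene and had 88.0% and 91.0% of its gene at 1.89 and 4.31 TPM. Tsr2-203 (76.3% and 76.5%), from a gene for a ribosome assembly protein, and Napb-202 (83.3% and 75.5%), from a gene for a SNARE-disassembly protein, were likewise low, at 1.77 and 3.57 TPM and at 1.13 and 1.56 TPM.

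**Figure D2:**
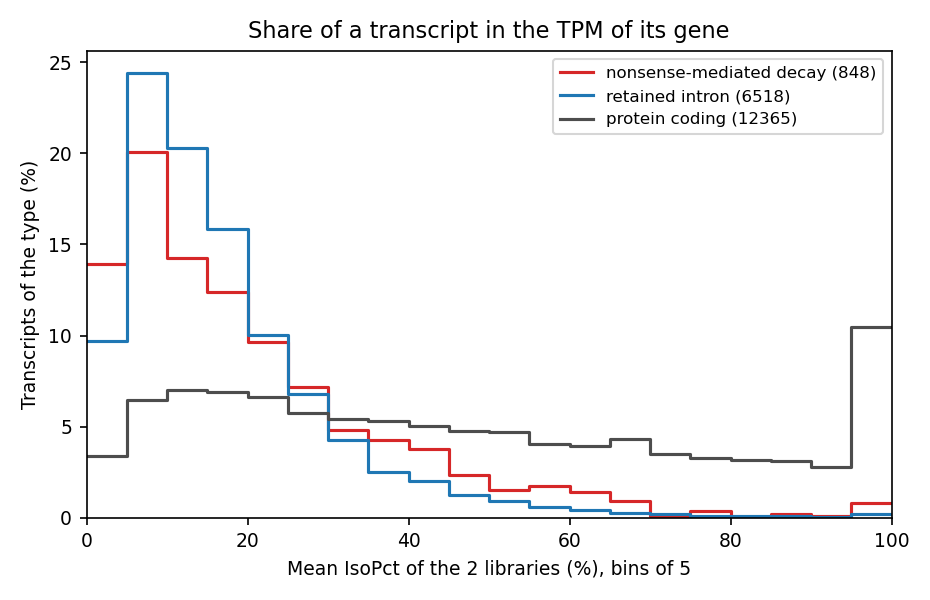
Percentage of the transcripts of each type (vertical axis) by their mean IsoPct in the 2 libraries (horizontal axis, bins of 5 percentage points), for transcripts at 1 TPM or more in both libraries. The 848 NMD and 6518 retained-intron transcripts are most frequent below 20%, with a tail above it. The 12365 protein-coding transcripts spread over the whole range with a rise at the top bin.

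Taken over the 729 host genes, members held 16.4% of the summed TPM in replicate 1 and 16.5% in replicate 2. Protein-coding transcripts held 49.7% and 44.4%, and retained-intron transcripts 29.7% and 34.4%, so the share of members was alike in the libraries while those of the other types moved in opposite directions. In expected counts, which grow with transcript length, members held 15.2% and 14.8%. Of a whole library, members made up 0.552% and 0.622% of TPM. They held 362268 of 21941651 expected counts in replicate 1, or 1.65% (95% Wilson interval 1.646 to 1.656%), and 276359 of 17730340 in replicate 2, or 1.56% (1.553 to 1.564%). These intervals cover counting error only and not the uncertainty of dividing reads among isoforms.

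Of the 10 most abundant members, 5 came from genes of the interferon and antiviral list, those of Mx1, Oasl2, Samhd1, Oas1g and Gbp6. The other 5 came from Ddx5, Lilr4b, Ctsh, Lrp1 and Hk3. Mx1-205 ranked first at 443 TPM in replicate 1 and 279.7 TPM in replicate 2. Mx1 encodes an interferon-induced GTPase against influenza viruses, and C57BL/6 mice carry an allele of it that lacks coding exons and yields no functional protein. This transcript had 48.2% and 57.2% of its gene, whereas the coding transcript Mx1-202 was at 146 and 77.7 TPM. Mx1-210 (55.9 and 21.2 TPM) and Mx1-203 (47.9 and 17.6 TPM) were also members, so that NMD transcripts together held 59.5% and 65.1% of Mx1. All 3 were lower in replicate 2 of this table. In the other transcript table, without centring, Mx1-205 was also lower there. Mx1-203 (76.4 and 133 TPM) and Mx1-210 (30.2 and 35.4 TPM) were higher. The median over all members was higher there too, at 0.868 and 2.58 TPM, so these uncentred values show no turn relative to other members.

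Ddx5-208 was at 235 and 204 TPM, with 66.6% and 51.9% of its gene, above the coding transcript Ddx5-201 at 83.4 and 135 TPM. Ddx5 encodes an RNA helicase with roles in splicing and transcription. Ddx5-208 retains an intron and shares exon bases with the small RNA genes Mir3064 and Gm25994. Of its 3593 bases, 562 belong to no other annotated transcript on its strand. Nuclear reads of unspliced Ddx5 RNA would fall on those same bases and cannot be told apart from this transcript.

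Oasl2-205 had 143 and 166 TPM and 35.9% and 35.2% of its gene, from a member of the oligoadenylate synthetase-like family. Oas1g-203, from a gene of the same family, was at 79.9 and 52.0 TPM with 62.9% and 56.1%, and exceeded the coding transcript Oas1g-201 at 13.5 and 12.0 TPM. Samhd1-204, from the gene of a nucleotide hydrolase that limits retroviruses, was at 93.7 and 116 TPM with 22.3% and 30.7%. It covers a whole intron of a coding transcript, and 1817 of its 3753 bases belong to no other annotated transcript on its strand. Nuclear reads of unspliced Samhd1 RNA would fall on that intron too, so its level is uncertain. Gbp6-203, from a guanylate-binding protein gene, was at 42.2 and 60.6 TPM with 35.0% and 49.9%, and the coding transcript Gbp6-201 at 54.7 and 24.3 TPM. The order of the coding and the NMD form of Gbp6 thus differed between the libraries. The Oas1 and Gbp genes have close paralogs, among which the authors' procedure had to divide shared reads.

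Outside the antiviral genes, Lilr4b-204 was at 155 and 168 TPM with 24.6% and 19.4% of a gene for an immunoglobulin-like receptor of myeloid cells. It had no base or junction of its own and overlapped Gm49339, and Lilrb4a is a close paralog, so its level is uncertain. Ctsh-202 was at 81.1 and 122 TPM with 54.3% and 66.7% of the gene for the lysosomal protease cathepsin H, above the coding Ctsh-201 at 34.0 and 22.9 TPM. Lrp1-205, from the gene of a large endocytic receptor, was at 67.6 and 98.3 TPM with 26.5% and 33.6%. It is 679 bases long against 14888 for the coding Lrp1-201 (106 and 91.2 TPM) and held 944 and 928 expected counts. Hk3-204, from a hexokinase gene of myeloid cells, was at 53.8 and 47.0 TPM with 23.0% and 33.8%.

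**Figure D3:**
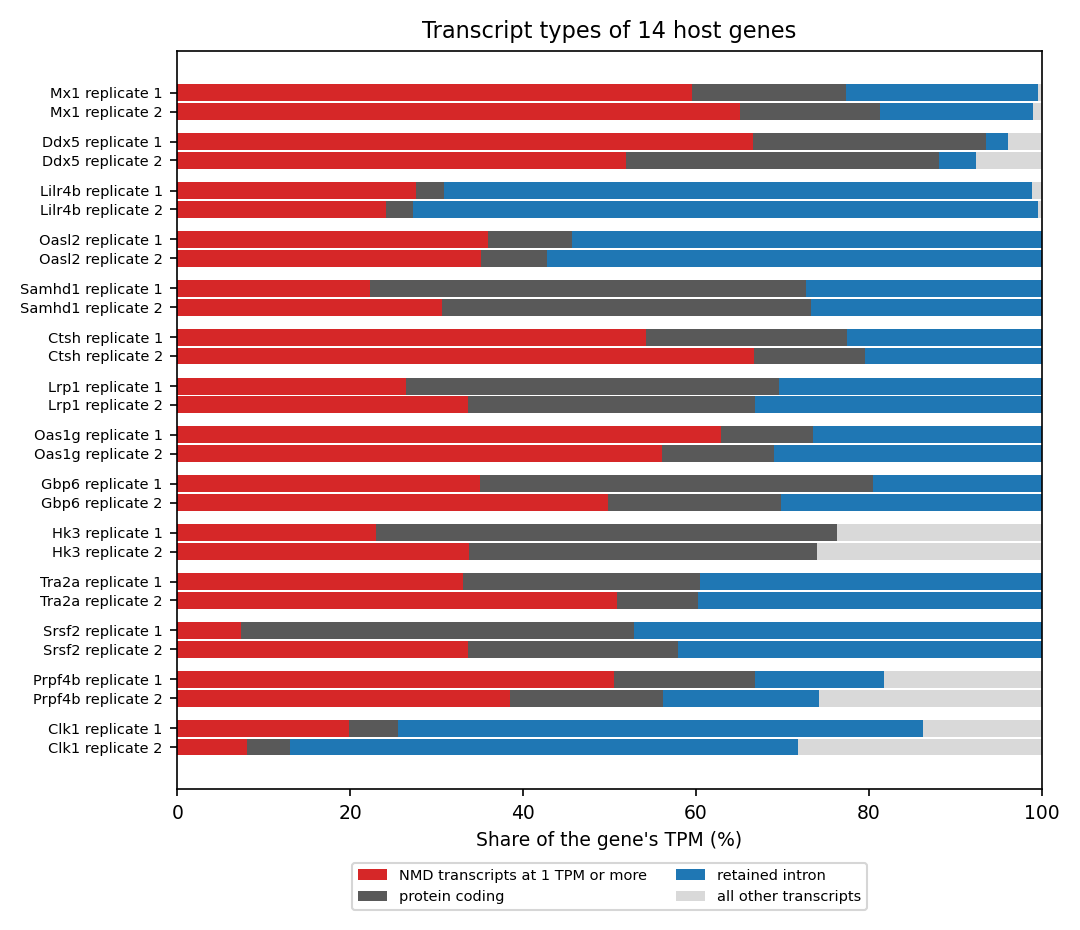
Share of the gene's TPM (horizontal axis, %) by transcript type for 14 host genes, with 1 bar for each library. Red segments are NMD transcripts at 1 TPM or more in both libraries, which reach 66.7% in Ctsh in replicate 2 and 7.33% in Srsf2 in replicate 1.

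**Figure D4:**
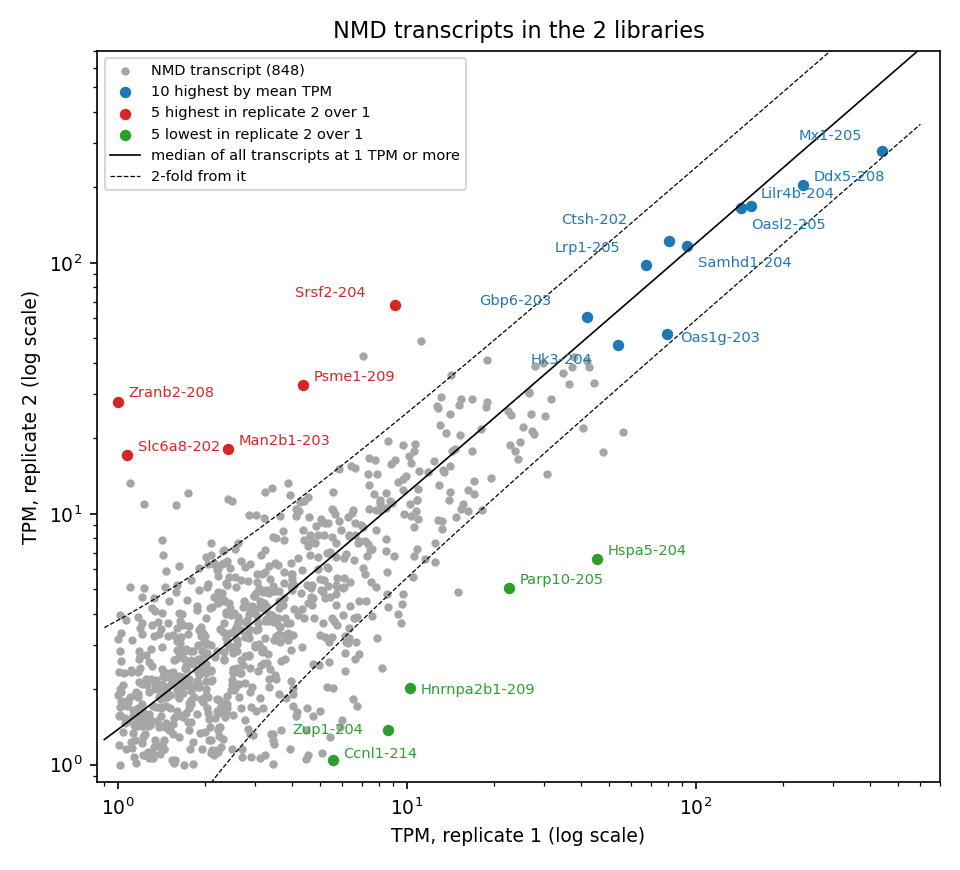
TPM of the 848 NMD transcripts in replicate 1 (horizontal log axis) and replicate 2 (vertical log axis). The solid curve is the median difference of all transcripts at 1 TPM or more, on the scale of log2(TPM + 1), and the dashed curves lie 2-fold from it. Srsf2-204 and Zranb2-208 sit far above the upper curve, and Hspa5-204 far below the lower.

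Host genes were next grouped by function, with 21 lists. For the background, 3017 genes with an annotated NMD transcript had a summed TPM of 1 or more in both libraries, and 24.2% of them held a member. That share rose with the level of the gene, from 5.73% of genes at 1 to 5 TPM and 20.5% at 5 to 20 TPM to 42.3% at 20 to 100 TPM and 63.8% at 100 TPM or more. A list of highly expressed genes therefore holds more members through the threshold itself, and the median gene level is given beside each count, against 10.95 TPM over all 3017 genes.

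Splicing regulators are the best known hosts of poison exons. Of 17 expressed SR protein and SR-related genes with an annotated NMD transcript, 11 held a member (64.7%, median gene level 53.8 TPM), with 12 members in all. SR proteins bind exons and recruit the splicing machinery. Srsf2-204 was at 9.09 and 67.8 TPM with 7.33% and 33.7% of its gene, while the coding Srsf2-201 was at 43.0 and 44.1 TPM. Tra2a-202, whose stop lies in a separate exon, was at 14.3 and 35.8 TPM with 33.0% and 50.9%, above each coding transcript of Tra2a in both libraries. Both were higher in replicate 2.

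The other SR members had a lower mean TPM than Tra2a-202 and Srsf2-204. Those with a stop in a separate exon were Srrm2-203 (13.0 and 13.0 TPM), Srsf3-201 (6.09 and 5.57 TPM), Tra2b-206 (3.99 and 2.86 TPM) and Srsf4-204 (1.92 and 2.27 TPM). Son-212 was at 13.5 and 14.6 TPM and Son-208, from the same large nuclear speckle protein gene, at 12.6 and 6.45 TPM. Scaf11-202 (8.93 and 11.0 TPM) had the highest mean share after Tra2a-202, 41.8% and 36.2%. Srek1-206 was at 6.45 and 10.1 TPM, Srsf6-201 at 5.89 and 1.41 TPM, and Srsf1-204 at 1.66 and 3.23 TPM. Over the list the stop lay in added bases in 7, in shared exon bases in 3 and at the coding stop in 2.

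Kinases that phosphorylate SR proteins held a member in 6 of 7 such genes (85.7%, median gene level 31.2 TPM). Prpf4b-208 was highest at 22.5 and 25.7 TPM, with 39.4% and 30.4% of its gene, and the gene had a pair of further members below 5 TPM. Clk1-210 was at 13.2 and 9.32 TPM, or 19.9% and 8.03% of a gene in which retained-intron transcripts held 60.7% and 58.7%. Clk2-204 was at 9.03 and 6.79 TPM with 45.2% and 27.1%. Clk4-204 (2.88 and 1.95 TPM), Clk3-209 (1.5 and 3.25 TPM) and Srpk2-204 (2.18 and 1.53 TPM) were near the threshold. IsoPct was lower in replicate 2 for 7 of these 8 transcripts, with Clk3-209 the exception, compared with 431 of all 848 members (50.8%) and 41.1% of all transcripts at 1 TPM or more in both libraries.

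Genes for hnRNPs and related RNA-binding proteins, which mostly repress exons, held a member in 16 of 23 cases (69.6%, median gene level 40.1 TPM), with 22 members. In 10 of the 22 the stop was that of a coding transcript of the gene, with a junction downstream, against 68 of all 848 members. Whether the coding transcript lacks that junction was not checked. Hnrnpa1-203 (23.1 and 24.7 TPM, 50.9% and 49.0% of its gene), Hnrnpa1-204 (14.4 and 17.8 TPM), Hnrnpd-208 (16.8 and 28.6 TPM) and Tardbp-208 (7.09 and 42.4 TPM) were of this kind. In the other transcript table Hnrnpa1-203 was lower, at 3.57 and 3.51 TPM, with 34.2% and 15.6% of its gene. Tardbp encodes TDP-43, an RNA-binding protein that controls its own level through splicing of its last exon. Hnrnpu-206 (38.1 and 42.1 TPM) was the most abundant member of the list, and Rbmx-205 (8.52 and 12.1 TPM) had the highest mean share, 58.9%. Among genes of the spliceosome 15 of 41 held a member (36.6%, median 16.6 TPM). Prpf38b-208 was at 27.7 and 38.8 TPM and Rbm39-225 at 13.3 and 14.9 TPM. The other transcript table gave 8.58 and 24.1 TPM for Prpf38b-208 and 1.85 and 2.82 TPM for Rbm39-225. Of RNA helicase genes, Ddx5 included, 5 of 15 held a member (33.3%, median 9.57 TPM), with Dhx9-209 at 6.62 and 15.3 TPM and Dhx15-207 at 3.43 and 12.6 TPM.

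None of the NMD factor genes held a member. The 27 such genes measured, which include Upf1, the helicase at the centre of the pathway, were all at 1 TPM or more, from 4.10 TPM for Smg8 to 70.6 TPM for Smg1, the kinase of UPF1 (mean 70.6 ± 24.5, SD, n = 2). Only 5 of them have an annotated NMD transcript, 8 transcripts in all. The nearest to the threshold were a Magohb transcript at 1.38 and 0 TPM and a Smg5 transcript at 0.52 and 0.95 TPM. With 5 genes the count says little about the list.

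Interferon and antiviral genes held a member in 22 of 34 cases (64.7%), at the highest median gene level of the lists, 78.5 TPM. Besides those above, Gbp4-202 (34.8 and 36.4 TPM) had 62.9% of its gene on average, Ifi35-203 (24.3 and 16.5 TPM) 43.2% and Rsad2-202 (42.8 and 38.3 TPM), from the gene of the antiviral enzyme viperin, 4.6%. The stop lay in added bases in 11 of the 24 members, in shared exon bases in 12 and at the coding stop in 1.

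Lists of macrophage function were also represented. Of lysosome and proton pump genes 10 of 20 held a member (50%, median gene level 46.2 TPM), with Gusb-206, from the beta-glucuronidase gene, at 30.2 and 24.5 TPM. Of genes of TLR and NF-kB signalling 10 of 22 did (45.5%, 29.2 TPM). Nlrp1b-205, from an inflammasome sensor gene, was at 8.63 and 19.6 TPM with 47.6% and 48.6%. Nfkb1-207 (2.23 and 6.00 TPM), Malt1-211 (5.20 and 3.24 TPM) and Tbk1-204 (1.52 and 1.90 TPM) were lower. Of immune surface receptor genes 14 of 37 did (37.8%, 40.2 TPM), with Cd300c2-202 at 26.5 and 30.2 TPM and a mean share of 70.6%, and Il4ra-205, from the interleukin-4 receptor gene, at 30.7 and 14.4 TPM.

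Ribosomal protein genes held a member in 10 of 19 cases (52.6%, 38.2 TPM), Rpsa-206 (16.3 and 10.3 TPM) and Rpl12-201 (14.1 and 12.2 TPM) among them. These genes have many processed pseudogenes, so their counts are uncertain. Translation factor and tRNA synthetase genes held one in 9 of 36 (25%, 11.04 TPM), led by Eif4a2-210 at 11.3 and 48.8 TPM, and mitochondrial protein genes in 12 of 52 (23.1%, 9.02 TPM), led by Ndufa3-204 at 10.6 and 17.7 TPM with 58.5% and 72.0%. Ubiquitin and proteasome genes did so in 30 of 99 (30.3%, 15.0 TPM), led by Rnf114-203 at 25.3 and 22.2 TPM with 64.9% and 63.2% of its gene.

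The remaining lists were close to or below the background of 24.2%. Chromatin genes held a member in 15 of 71 (21.1%, 15.9 TPM), with Brd2-207, from a gene for an acetyl-histone reader, at 27.7 and 20.8 TPM and Cbx1-204 at 7.49 and 7.18 TPM. RNA polymerase II transcription genes held one in 10 of 48 (20.8%, 9.85 TPM). Ccnl1-203 (26.9 and 25.01 TPM) and Ccnl1-205 (18.9 and 27.9 TPM) came from the gene of cyclin L1. In the other transcript table Ccnl1-203 was at 9.83 and 19.0 TPM and Ccnl1-205 at 1.11 and 12.2 TPM. The share was 26.0% (13 of 50, median gene level 12.8 TPM) for signalling kinases, 26.2% (16 of 61, 10.5 TPM) for solute carriers and ABC transporters, 25% (3 of 12, 9.79 TPM) for autophagy, 14.3% (14 of 98) for membrane traffic and 14.5% (9 of 62) for Zfp zinc finger genes. The median gene level was 14.8 TPM for membrane traffic and 6.37 TPM for the Zfp genes. In all, 293 members of 247 genes were on a list.

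A minority of members differed more than 2-fold between the libraries. Differences are log2 ratios of replicate 2 to replicate 1 of TPM + 1, centred on the median of all transcripts at 1 TPM or more in both libraries, which was 0.25 (1.19-fold). Spearman's rho between the libraries was 0.68 over the 848 members and 0.85 over protein-coding transcripts, a description over transcripts that share the same libraries. More than 2-fold higher in replicate 2 were 40 members (4.72%, against 3.82% of all transcripts at the same level) and more than 2-fold lower were 63 (7.43%, against 5.6%). Without the subtraction of the median, 86 were higher and 35 lower, so the balance of directions rests on that choice. IsoPct differed by more than 10 percentage points between the libraries for 173 members (20.4%), against 24.3% of all transcripts at the same level.

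The 5 members with the widest differences upward in replicate 2 all had a higher IsoPct there, and the 5 with the widest differences downward all had a lower one. Both follow closely from the choice of these members, because IsoPct is computed from the same TPM. Zranb2-208, from the gene of a splicing-related zinc finger protein, was at 1.00 and 28.0 TPM with IsoPct of 3.30% and 40.3%. Slc6a8-202, from the creatine transporter gene, was at 1.08 and 17.1 TPM, Psme1-209, from a proteasome activator gene, at 4.39 and 32.7 TPM, and Man2b1-203, from a lysosomal mannosidase gene, at 2.41 and 18.1 TPM. With Srsf2-204, these were the 5 largest. Downward, Hspa5-204, from the gene of the endoplasmic reticulum chaperone BiP, was at 45.8 and 6.59 TPM with IsoPct of 25.4% and 5.56%. Parp10-205 (22.6 and 5.04 TPM), Hnrnpa2b1-209 (10.3 and 2.03 TPM), Zup1-204 (8.61 and 1.38 TPM) and Ccnl1-214 (5.55 and 1.04 TPM) followed. Expected counts behind these were as low as 16.5 for Zranb2-208 in replicate 1 and 35.0 for Hspa5-204 in replicate 2.

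Members from interferon and antiviral genes were lower in replicate 2 in 20 of 24 cases, against 459 of all 848 members, with a median of -0.72 against -0.05. The whole host genes of these members had a median of -0.51. IsoPct was higher in replicate 2 for 8 of the 24 and lower for 16. It was lower for 431 of all 848 members (50.8%) and for 41.1% of all transcripts at the same level. More than 2-fold lower in the table with IsoPct were 5 of the 24, among them Mx1-203, Mx1-210, Gbp5-202 (15.1 and 4.87 TPM) and Parp10-205. In the uncentred values of the other table, Mx1-203 and Mx1-210 were higher in replicate 2. So was the median over all members (0.868 and 2.58 TPM), and this is no reversal of the centred differences. Without centring 18 of 24 were lower, against 308 of all 848. In the centred values of the other transcript table, 16 of 24 were lower, against 481 of 848, with a median of -0.29 against -0.10. Members from the signalling kinase list, which by its name pattern also takes in a centrosome protein gene, were lower in 13 of 14 with a median of -0.39, and in 10 of 14 without centring, beside the same 459 and 308 of 848. The median of their host genes was -0.15.

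The other transcript table, quantified from the reads directly, gave lower values at the median. Its TPM was at a median of 2.22-fold lower in replicate 1 and 1.43-fold lower in replicate 2 over all transcripts at 1 TPM or more, on the scale of log2(TPM + 1). At its deposited scale 361 of the 848 members reached 1 TPM in both libraries (42.6%, against 49.3% of all transcripts selected in the same way). Members reached it in 368 cases in replicate 1 and 711 in replicate 2, and 130 in neither. As an alternative chosen after seeing the data, the TPM of the other table was multiplied by 2.22 and 1.43 (replicates 1 and 2). Then 618 reached 1 TPM in both libraries. These factors come from TPM + 1, so the median ratio of TPM itself need not become 1. A value below 0.01 TPM in both libraries of the other table was found for 8 members.

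The order of members was similar in the tables. Spearman's rho between TPM values over the 848 members was 0.73 in replicate 1 and 0.72 in replicate 2, below the 0.88 and 0.86 over protein-coding transcripts, and 0.75 in both libraries for the share of a transcript in its gene. The median share was 12.9% and 13.3% in the other table. Relative to the median transcript, 26 members were more than 2-fold lower in the other table (3.07%, against 2.38% of all transcripts at that level) and 52 more than 2-fold higher (6.13%, against 4.24%). The share of members in the TPM of their host genes was 15.4% in each library of the other table, close to the values above. Of the 41 members with an IsoPct of 50% or more, 20 also had such a share in the other table in both libraries.

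Mx1-205 had the lowest ratio between the tables of the members with at least 100 expected counts. This transcript, at 443 and 279.7 TPM in the table with IsoPct, was at 24.5 TPM in replicate 1 and below 0.01 in replicate 2 of the other table. There Mx1-203 was the leading NMD form, at 76.4 and 133 TPM against 47.9 and 17.6 TPM. Both forms end 311 bases before their last junction, and Mx1-205 has a single junction and no base of its own. NMD transcripts together held 38.0% and 39.5% of Mx1 in the other table, against 59.5% and 65.1%. The rank of Mx1-205 as the most abundant member therefore depends on the table, while NMD forms of Mx1 were measured in both.

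The other 9 of the 10 most abundant members were also lower in the other table, by more than the median transcript on the scale of log2(TPM + 1). That scale shrinks the ratios of low transcripts more than those of high ones. These members were also picked as the highest in the table with IsoPct. The values therefore do not show that abundant members differed more between the tables. Ddx5-208 was at 58.4 and 118 TPM in the other table, Oasl2-205 at 31.9 and 91.4, Samhd1-204 at 22.6 and 71.0, Ctsh-202 at 16.5 and 62.1, and Lrp1-205 at 14.6 and 63.2. Oas1g-203 was at 23.2 and 33.0 TPM there and Gbp6-203 at 8.52 and 32.4. Lilr4b-204 was at 29.2 and 68.2 TPM, with a log2 ratio of -0.998 relative to the median transcript. Hk3-204 was at 8.05 and 28.5 TPM, with a ratio of -0.82 on that scale and a share of its gene of 9.66% and 21.4%. For the other 7 of these 9 the ratio ran from -0.77 for Ctsh-202 to -0.36 for Oas1g-203. Tra2a-202 was at 6.42 and 27.3 TPM and Srsf2-204 at 0.94 and 26.8 TPM, so the higher level of both in replicate 2 appeared in either table. Much lower in the other table were Rpl12-201 (0.44 and 1.21 TPM against 14.1 and 12.2), Myof-205 (below 0.01 and 3.19 TPM against 14.1 and 24.9) and Vps13c-203 (below 0.01 in both against 6.60 and 6.54). Much higher were Gpnmb-202, from the gene of a macrophage membrane glycoprotein (42.7 and 179 TPM against 14.1 and 15.5), and Ftl1-202, from the ferritin light chain gene (12.0 and 20.5 TPM against 3.22 and 2.55). Gpnmb-202 is 365 bases long, and its IsoPct was 0.90% and 0.92% against 9.77% and 13.9% of its gene in the other table.

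**Figure D5:**
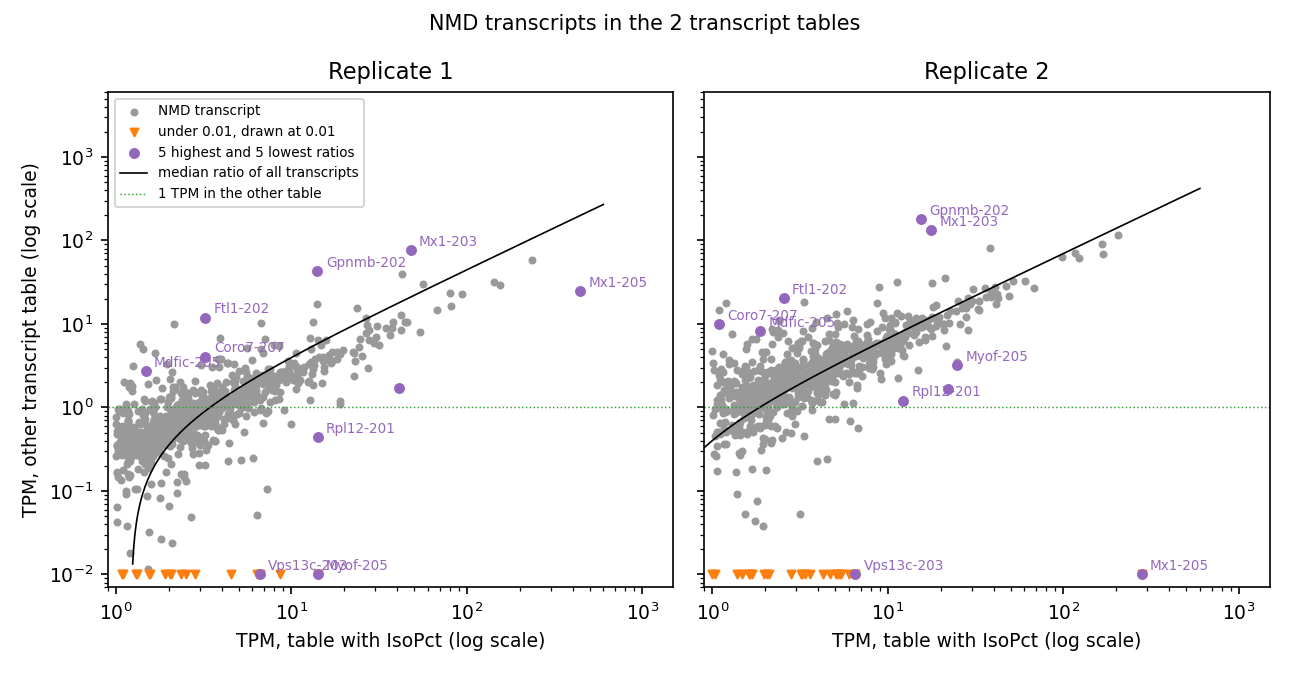
TPM of the 848 NMD transcripts in the table with IsoPct (horizontal log axis) and in the other transcript table (vertical log axis), for each library. The curve is the median ratio of all transcripts at 1 TPM or more, the dotted line marks 1 TPM in the other table, and triangles stand for values below 0.01, which are drawn at 0.01. Mx1-205 lies below the curve in replicate 1 and at the lower edge in replicate 2.

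The estimate of many members was imprecise. The deposited lower bound of TPM, whose level is not stated, was 1 or more in both libraries for 513 members (60.5%). For Mx1-205 the bounds were 419 to 435 TPM in replicate 1, below the estimate itself, and for Zranb2-208 the upper bound in replicate 1 was 3.29 TPM. Neither a base nor a junction of its own, compared with all other annotated transcripts on the strand, was found for 116 members (13.7%), Prpf4b-208, Srsf2-204 and Lilr4b-204 among them. For these only the combination of exons separates the transcript. At the threshold, Brf2-202 (1.02 and 1.00 TPM), Kmt2e-207 (1.70 and 1.00 TPM) and Fbxo28-204 (1.00 and 1.89 TPM) were just inside, and Gfm2-205 (0.99 and 1.75 TPM), Bap1-204 (0.99 and 1.63 TPM) and Itsn1-211 (0.99 and 1.57 TPM) just outside.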

How the data were processed

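Ribosomal RNA-depleted nuclear RNA was measured in 2 libraries of 1 group. Per text files the authors deposited, the tables use mm10 and GENCODE M21, one transcript table derives from a transcriptome alignment and the other from the reads. The authors deposited expected counts (estimated reads, often fractional), TPM (estimated reads over effective length, scaled to a fixed sum per library) and IsoPct, the percent of a gene's TPM, per the file headers. Bounds of TPM were deposited as scores of unstated level. The aligner, quantifiers, versions and strand were not given in the sources used here.

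Tables were joined by transcript identifier, and 97 entries of the other table without a match were left out. Depth was 21941651 and 17730340 expected counts, and 30118122 and 31357986 estimated counts in the other table, by column sums. Stop codons were compared with exons of the coding transcripts of the same gene. Differences used a pseudocount of 1. With 1 group no test was made. Members and lists were chosen with earlier results of these data known.

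Named were the 10 members with the highest mean TPM, the 10 with the highest lower IsoPct of the libraries (at least 100 expected counts over both), the 3 highest of each list, all SR and splicing kinase members, and the 5 extremes in each direction between libraries and between tables (same minimum). Of these, 2 members are not reported here. The 3 on either side of the threshold and the NMD factor genes were also named. Other members named from the hnRNP, interferon, TLR and receptor lists, Mx1-210, and the hosts' coding transcripts were picked after their values were seen. Alternatives were other thresholds, pseudocounts, scalings, the other table, 10 expected counts in each library, transcript support level 1 or 2, and each library alone. Stop classes and counts of differences were tested on simulated data. Software was scipy 1.17.1, pandas 2.3.3, numpy 2.4.6 and matplotlib 3.10.9 under Python 3.11.15.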

Additional observations from a re-analysis of the deposited data

How the results depend on the processing

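No paired analysis was possible because the design has 1 group. The number of members, 848, became 1293, 497 and 183 at thresholds of 0.5, 2 and 5 TPM, 496 in the other table (361 of them shared; 1040 and 618 when scaled), 442 at transcript support level 1 or 2, and 513 with the deposited lower bound at 1 TPM or more. It was 1167 to 1258 with a single library. The median IsoPct of 15.6% became 13.5%, 18.5% and 24.8% at those thresholds, 13.7% to 14.8% with a single library, 14.9% after rescaling without mitochondrial and short transcripts, 16.3% in the other table (14.2% when scaled), 16.0% with at least 10 expected counts, 17.7% at support level 1 or 2 and 18.5% with the lower bound. Members at 50% or more of their gene, 41, became 21 at 5 TPM, 15 in the other table (32 when scaled), 71 to 103 with a single library and 121 when the highest form of the gene was counted instead. The share of host gene TPM, 16.5% on average, was 15.0% in expected counts, 15.4% in the other table and 16.4% to 16.5% with a single library. Stops in added bases stayed within the counting interval of 38.7% under each alternative run.

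Recovery in the other table, 42.6%, was 43.4% to 83.8% with a single library and 72.9% after scaling. The median log2 ratio between the tables, -0.75, was -1.19 and -0.31 with pseudocounts of 0.1 and 5, -1.07 to -0.47 with a single library, and 0.077 relative to the median transcript, where the direction turned because the overall difference between tables was removed. Differences between libraries over 2-fold, 103, became 170 and 20 with pseudocounts of 0.1 and 5. Of the 10 named differences, which were picked as the extremes, Ccnl1-214 was at -0.94 with a pseudocount of 5 and Zup1-204 at -0.98 in the other table, below 2-fold. Depth limits the low members: the smallest had 1 and 3 expected counts.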
